A study of Sus scrofa with 22 samples.

Results

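Trophectoderm, the outer layer of the blastocyst, was compared between a late period, the authors' groups TE_E12, TE_E13 and TE_E14, and an early period, TE_E7, TE_E8 and TE_E10, where E stands for embryonic day. A cell's name holds its library and no stage, so each deposited group mean was fitted by least squares on the log2 values of all cells, and a cell was placed in the group that gave it weight. This found 107 cells of the 1647 in the series, 53 early and 54 late. The data are polyadenylated RNA from single cells of preimplantation pig embryos (20 libraries, P1 to P20) and of stem cell lines from the epiblast of E10, which were not used here. The labels name no treatment for the embryos, and they give no breed, genotype, sex or number of embryos for a library.

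The pig conceptus does not attach to the uterus at once. Its trophectoderm first takes up uterine secretions as a small sphere, and then lengthens through ovoid and tubular shapes into a long filament. In the same phase it releases oestrogens, which signal pregnancy to the mother, followed by interferons, and it starts to make pregnancy-associated glycoproteins, secreted members of the aspartic protease family. The genes behind these steps include the steroid enzymes CYP11A1, CYP17A1 and CYP19A1, the interferons IFNG and IFN-DELTA-1, and transcription factors of the trophoblast such as GATA2, GATA3, HAND1 and PPARG.

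The counts of all cells that share a library and day were summed, and 12 sums with at least 5 cells entered the test. The 6 early sums (50 cells) were E7 of P8 and P9, E8 of P3 and P4, and E10 of P5 and P6. The 6 late sums (53 cells) were E12 of P10, E13 of P9, P10, P18 and P19, and E14 of P12. A sum had from 494250 to 3117641 counts. The median early cell had 171993 counts and 8077 detected genes, and the median late cell 204050 counts and 8992.5 genes. Only P9 held sums of both periods, and P10 held sums of 2 late days, so sums are not fully independent. Nothing says that libraries hold separate embryos, so p-values measure the spread between these sums, which may be technical. The 107 cells carried 62 distinct barcodes, 37 of them in more than 1 library. Levels are given as CPM, the usual scaling of each sum's pig gene counts to one fixed total.

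Some sums stood apart. The E7 sum of P9 had 5 cells, 494250 counts, 10.2% mitochondrial counts against 1.89 to 4.77% in the other 11 sums, and 8.01% spike-in counts against 1.89 to 4.86%. Its mean Spearman correlation with the other sums of its period was 0.676, against 0.768 to 0.848 for the other 11. The E14 sum of P12 held fibroblast collagens: COL1A1 was at 105 CPM and COL3A1 at 122 CPM there, against at most 3.57 and 7.15 CPM in the other sums. All 10 of its cells had COL1A1 counts, at 39.7 to 279 CPM, and the ectoderm cells of P12, from the embryonic lineage, had 95.8 CPM. In the E10 sum of P5, 1 cell with 15798 detected genes held 98.1% of the counts of HBB, a haemoglobin gene at 212 CPM in that sum. The part of these values in the results was not tested.

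**Figure D1:**
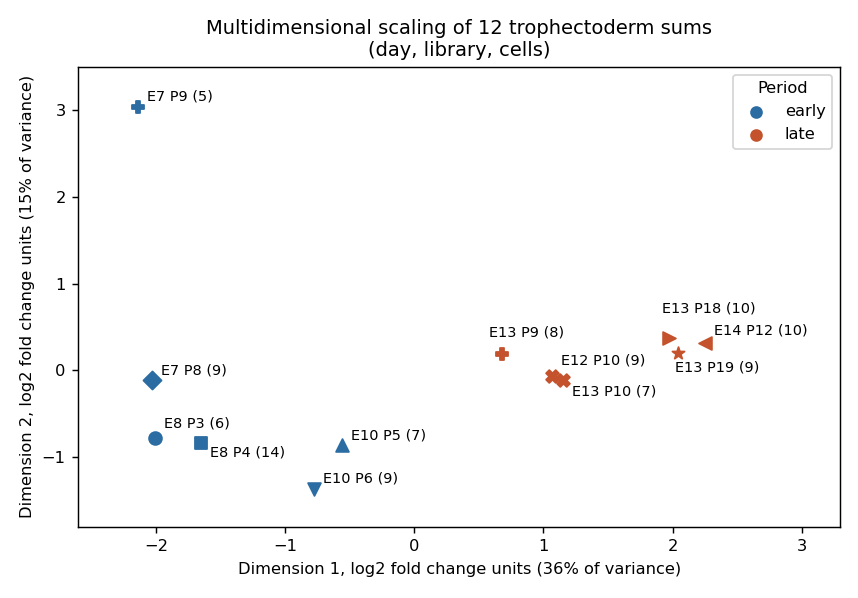
Multidimensional scaling of the 12 sums, each a point labelled with its day, library and number of cells, with both axes in log2 fold change units of the leading genes. Early and late sums separate along dimension 1 (36% of variance), with E10 nearest to the late sums, and the E7 sum of P9 lies apart along dimension 2 (15%).

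GATA3 and GATA2, markers of trophectoderm, were higher in both periods than in embryonic sums, while other markers were less uniform. GATA3 was at 173 to 246 CPM in the early sums and at 245 to 542 CPM in the late sums, against 4.95 to 82.8 CPM in the 7 sums of epiblast and ectoderm from the same libraries and days. GATA2 was at 225 to 935 CPM early and at 209 to 498 CPM late, against 7.26 to 34.7 CPM in those embryonic sums. KRT8 and KRT18, the keratins of simple epithelia, had means of 2727 ± 424 and 1901 ± 427 CPM early (here and below the SD, n = 6 sums per period) and of 1711 ± 681 and 1140 ± 608 CPM late. Both were lowest at E14 of P12, at 730 and 275 CPM, and KRT8 there was below the mean of late ectoderm given further below. CDX2 was at 10.2 to 57.7 CPM in the early sums and at 3.14 to 30.9 CPM in the late sums, lowest at E12. Neither keratin passed the test (log2 change -0.66 ± 0.28 and -0.72 ± 0.35, here and below with the standard error). GATA2 (-0.18 ± 0.31), CDX2 (-0.63 ± 0.54) and TFAP2C (-0.35 ± 0.43) did not pass it either, and GATA2 and TFAP2C changed sign under other settings. GATA3 passed at 0.72 ± 0.20 (edgeR adjusted p = 0.0364), a call lost in 7 of the 10 fits that each left out 1 library. It was the only one of 10 tested trophectoderm markers to pass, while 9 did not, with a median log2 change of -0.43 against 0.02 over all genes tested.

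Over the whole table, 753 of 9081 genes tested passed an adjusted p of 0.05 in the quasi-likelihood test of edgeR (Benjamini-Hochberg adjusted over these genes), which is 8.29%. Of these, 435 were higher in the late period (4.79% of genes tested) and 318 were lower (3.5%). The counts in the gene lists below are to be read against these shares. All sums of a period lay above all sums of the other for 460 genes (5.07%). With the E7 sum of P9 left out 1071 genes passed (640 higher, 431 lower), and with the cell of 15798 genes left out 764. Leaving out E14 of P12 gave 658. With all of E13 left out, 2 late sums remained and 262 genes passed, 190 higher and 72 lower; of the 8 sums left, 6 were early. With E8 left out, 454 passed.

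IFNG encodes interferon gamma, which the trophoblast secretes in the pig. It stood at 2.86 and 107 CPM at E7 (P8, P9), at 0 and 1.10 CPM at E8 (P3, P4) and at 38.1 and 167 CPM at E10 (P5, P6). In the late period it stood at 618 CPM at E12, at 1178, 2016, 2070 and 2744 CPM at E13 (P9, P10, P18, P19) and at 2151 CPM at E14. Every late sum lay above every early one. The change was 5.14 ± 1.01 on the log2 scale (edgeR adjusted p = 0.00322), and it kept its call without any single library. The call of IFNG late against early trophectoderm was lost with E13 left out (4.63, edgeR adjusted p = 0.0844) and with the library as a block (3.38, adjusted p = 0.0959). Every late cell in the sums had IFNG counts, at 166.5 to 4910 CPM, whereas the counts of the E10 sum of P6 came from 2 cells, 1 of which held 99.5%.

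IFN-DELTA-1, an interferon of the type I family made by the pig trophoblast, had no count in any early sum, at E12 or at E13 of P10. It was at 0.426 CPM at E13 of P9, at 31.6 CPM at E13 of P18, at 69.6 CPM at E13 of P19 and at 72.2 CPM at E14. Pooled over the late sums this was at least 109-fold above the level that 3 counts over the early sums would give. It did not pass the filter on low counts and has no test. At E13 it came from 8 of 34 cells, and in P18 a single cell held 81.1% of its counts. At E14, 9 of 10 cells had it. Of 3 tested genes in the list of interleukin and interferon signals, 1 rose (IFNG) and 1 fell: IL6ST, the shared receptor chain for cytokines of the interleukin 6 family, at -1.43 ± 0.41 (edgeR adjusted p = 0.0392), lost in 5 of 10 fits without 1 library. Of 6 tested interferon-stimulated genes 1 rose, IFI6 (2.65 ± 0.75, edgeR adjusted p = 0.0349), highest at E12 with 220 CPM and lost in 5 of 10 fits without 1 library. The receptor genes IFNGR1, IFNGR2, IFNAR1 and IFNAR2 were at most at 18.6, 1.96, 11.09 and 9.62 CPM in any sum and were not tested.

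PAG6, a pregnancy-associated glycoprotein, had 1 count over all early sums. It was at 20 CPM at E12, at 20.5, 55.8, 517 and 682 CPM at E13 (P9, P10, P18, P19) and at 718 CPM at E14. The late sums of P18, P19 and P12 were thus far above those of P9 and P10. The ratio of pooled late to early levels was 3647 (95% counting interval 654 to 144068), and the gene passed the test (edgeR adjusted p = 4.32e-05). Its per-cell median was 5.24 CPM at E12, 132 CPM at E13 and 712 CPM at E14. PTHLH, a hormone related to parathyroid hormone, had no early count and stood at 34.5 CPM at E12, at 27.3, 94.1, 47.7 and 58.9 CPM at E13 and at 44.9 CPM at E14. This was at least 151-fold above the early floor of 3 counts (edgeR adjusted p = 2.86e-05).

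In the list of pregnancy-associated glycoproteins, proteases and their inhibitors, 5 of 23 tested members rose and 4 fell, with a median log2 change of 0.47. Those that fell were CTSD, CSTB, SERPINE2 and PAG1, and PAG1 shares its symbol with an unrelated membrane adaptor. MMP2, a protease that cleaves basement membrane collagen, rose from 1.39 ± 1.31 to 24.5 ± 13.3 CPM (SD, n = 6 each; log2 change 4.15 ± 0.79, edgeR adjusted p = 0.00262). CTSB, a lysosomal cysteine protease that can be secreted, rose from 43.8 ± 32.8 to 244 ± 180 CPM. CSTB, an inhibitor of such cathepsins, fell from 970 ± 246 to 420 ± 101 CPM (-1.24 ± 0.24, edgeR adjusted p = 0.00282). The aspartic protease CTSD fell by 1.54 ± 0.39 on the log2 scale (edgeR adjusted p = 0.018), a call lost without P9 (adjusted p = 0.0567) and without P10 (adjusted p = 0.0741).

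**Figure D2:**
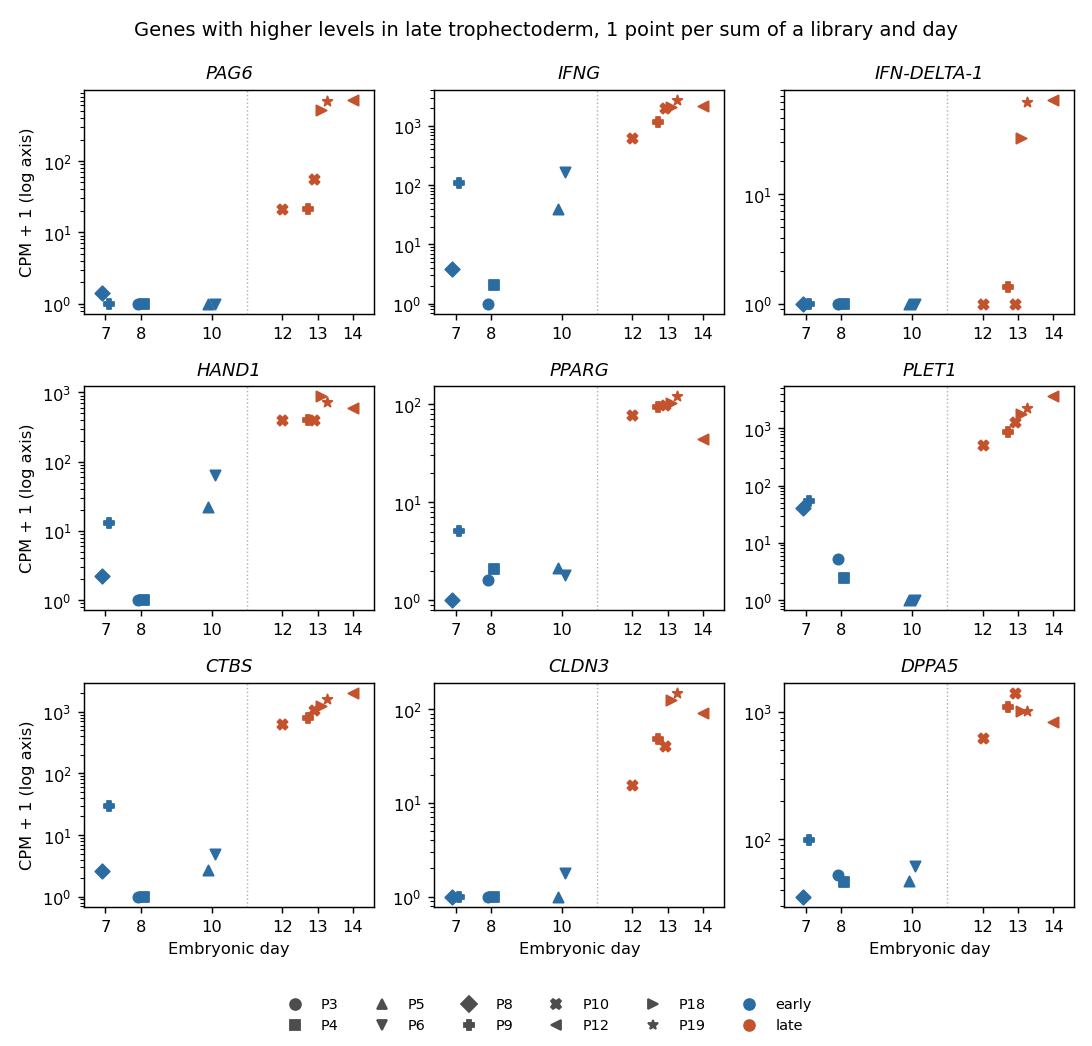
Levels of 9 genes by embryonic day, as CPM + 1 on a log axis, 1 point per sum of a library and day, with the marker giving the library and the colour the period. The late sums of IFNG lie at 618 CPM or more and the early ones at 167 CPM or less, and PAG6 and IFN-DELTA-1 are higher at E13 of P18 and P19 than at E13 of P9 and P10; IFN-DELTA-1 was not tested.

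Among 38 tested transcription factors of the trophoblast, 7 rose and 3 fell, with a median log2 change of 0.49. HAND1, a basic helix-loop-helix factor needed for trophoblast and extraembryonic mesoderm, stood at 1.22 and 12.1 CPM at E7, at 0 in both E8 sums and at 21.3 and 63.3 CPM at E10. It stood at 398 CPM at E12, at 397, 392, 877 and 719 CPM at E13 and at 592 CPM at E14 (log2 change 5.13 ± 0.91, edgeR adjusted p = 0.00145). The late sums all lay above the early ones, and E10 was the highest early day, although 1 cell held 91.25% of the counts in its P6 sum. PPARG, a nuclear receptor for fatty acids that acts in trophoblast differentiation, was at 0 to 4.05 CPM in the early sums, E10 included, and at 42.7 to 119 CPM in the late ones, lowest at E14. Its change was 6.46 ± 0.60 (edgeR adjusted p = 5.82e-06). EPAS1, a hypoxia-inducible factor, went from 10.9 ± 9.91 to 203 ± 167 CPM (4.11 ± 0.60, edgeR adjusted p = 0.000254), with its highest value, 523 CPM, at E14. NR2F2, an orphan nuclear receptor, rose by 4.11 ± 0.88 (edgeR adjusted p = 0.00642), although its E14 sum, at 9.62 CPM, was below the highest early sum at 12.1 CPM.

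The factors that fell were KLF5, ASCL2 and WWTR1. KLF5, a Krüppel-like factor of the early trophectoderm and inner cell mass, went from 153 ± 61.6 to 18.5 ± 13.4 CPM (-3.06 ± 0.46, edgeR adjusted p = 0.000369), with no overlap between periods. ASCL2, an imprinted helix-loop-helix factor of trophoblast progenitors, went from 28.2 ± 7.59 to 2.75 ± 3.68 CPM (-3.28 ± 0.79, edgeR adjusted p = 0.0148), a call lost without P10 (adjusted p = 0.0603). WWTR1, the Hippo pathway coactivator known as TAZ, fell by 2.29 ± 0.64, a call lost in 5 of 10 fits without 1 library. ESRRB, an orphan nuclear receptor of trophoblast progenitors, was among the 12 falling genes named for size. It stood at 93.0 and 190 CPM at E7, at 78.2 and 52.9 CPM at E8 and at 32.9 and 11.08 CPM at E10, and in the late period only E13 of P9 had counts, at 10.2 CPM. Its change was -5.27 ± 1.05 (edgeR adjusted p = 0.00364).

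Steroid enzymes had different levels on different days. Of 14 tested genes of steroid synthesis, none rose and 1 fell, a share near the 8.29% called over all genes (CYB5A, a cofactor of the CYP17A1 lyase step, -1.03 ± 0.29, edgeR adjusted p = 0.0346, lost in 9 of 10 fits without 1 library), with a median log2 change of -0.40. At an unadjusted p under 0.05, 0 were higher and 3 lower, and DESeq2 called 0 higher and 2 lower. CYP17A1, which turns progestagens into androgens, had 1 count at E7 and none at E8, stood at 294 and 538 CPM at E10 and at 264 CPM at E12, dropped to 36.7, 16.2, 5.96 and 30.6 CPM at E13 (P9, P10, P18, P19) and stood at 467 CPM at E14. All 16 E10 cells and all 10 E14 cells had counts of it. CYP19A1, the aromatase that makes oestrogens from androgens, was likewise low at E13: it stood at 84.2 and 299 CPM at E10, 176 CPM at E12, 5.54 to 28.6 CPM at E13 and 484 CPM at E14, with 1 count at E7 and none at E8. The E13 sums of both genes came from 4 libraries, and all 4 lay below every E10, E12 and E14 sum.

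CYP11A1, which cuts the side chain of cholesterol and so starts steroid synthesis, had another order. It stood at 13.9 and 20.2 CPM at E7, at 282 and 389 CPM at E8, at 444 and 450 CPM at E10, at 420 CPM at E12, at 145.5 to 345.5 CPM at E13 and at 15.7 CPM at E14. CYP11A1 was thus low at E14, the day on which CYP19A1 was highest. HSD17B1, which converts oestrone into oestradiol, ran from 52.6 and 89.0 CPM at E7 to 939 and 1188 CPM at E10, and at E13 it was at 763 and 886 CPM in P9 and P10 but at 178 and 89.4 CPM in P18 and P19. STAR, which carries cholesterol into mitochondria, peaked at E12 with 287 CPM. CYP19A1 (0.75 ± 1.33), HSD17B1 (0.17 ± 0.65) and STAR (0.72 ± 0.54) did not pass the test between periods. The size and sign of the CYP17A1 difference depended on the setting, as levels differed among days within a period and E13 gave most of the late sums. The change was -0.15 ± 1.34 as tested (edgeR adjusted p = 0.964) and 5.89 for the contrast of day means (adjusted p = 2.15e-05). With E10 left out it was 9.25 (adjusted p = 0.0012). With the library as a block, where P9 alone ties the periods, it was 9.06 (adjusted p = 0.00105). The E7 sum of P9 and both E8 sums had no count of CYP17A1, so the last 3 sizes depend on the prior count. CYP11A1, at -0.17 as tested (edgeR adjusted p = 0.929), was at 3.47 with that block (adjusted p = 0.000674). Each day rests on 1 to 4 libraries, and no test was made between single days.

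**Figure D3:**
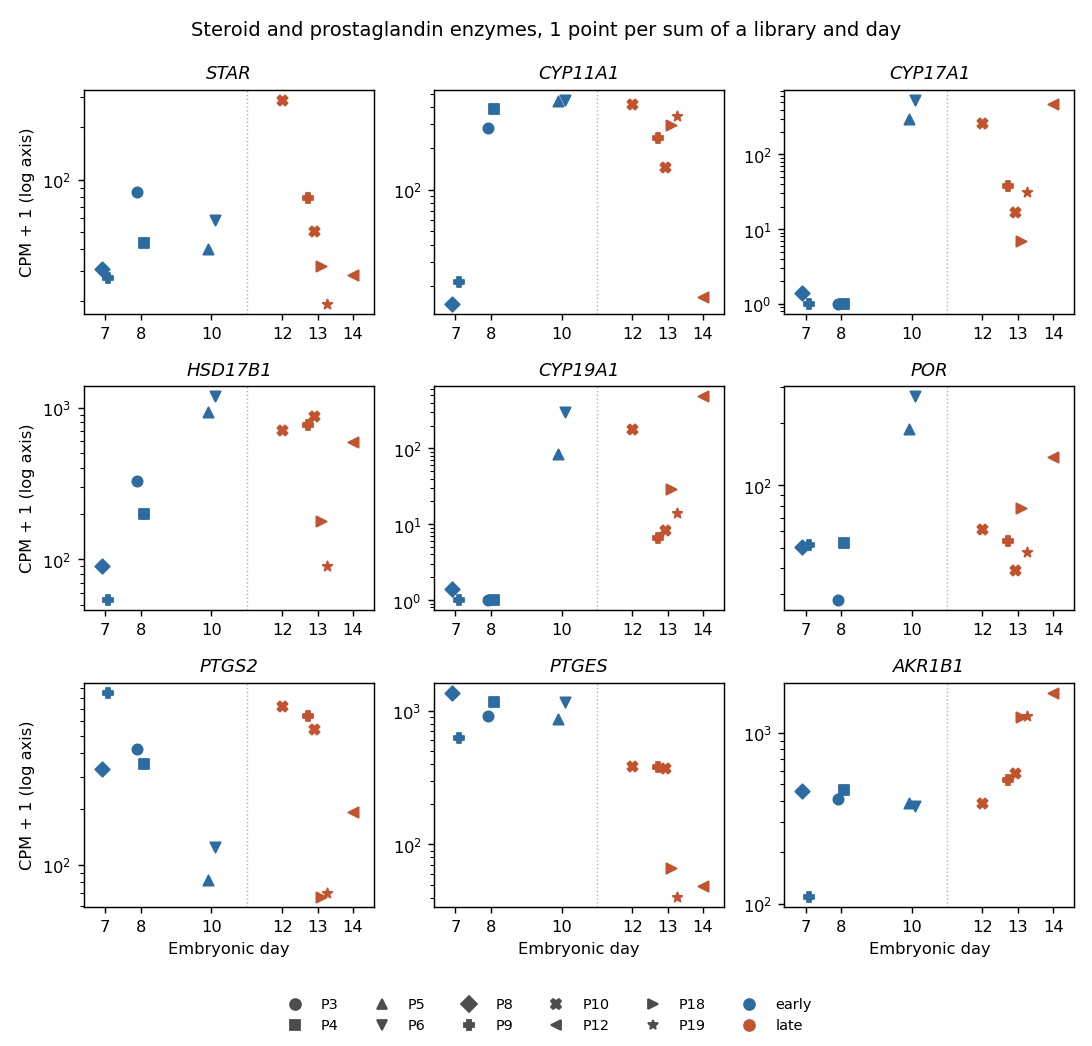
Levels of steroid and prostaglandin genes by embryonic day, as CPM + 1 on a log axis, 1 point per sum of a library and day. CYP17A1 and CYP19A1 are high at E10, E12 and E14 and low at E7, E8 and E13, while PTGES is lower in every late sum than in every early one.

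Of 9 tested genes of prostaglandin synthesis 1 rose, 1 fell and 7 did not pass, where 4.79% of all genes rose and 3.5% fell. PTGES, which makes prostaglandin E2, was at 629 to 1362 CPM in the early sums, at 387 CPM at E12, at 381 and 373 CPM at E13 of P9 and P10, at 66.1 and 39.8 CPM at E13 of P18 and P19 and at 48.1 CPM at E14. The fall was 2.26 ± 0.52 on the log2 scale (edgeR adjusted p = 0.0106). AKR1B1, an aldo-keto reductase with prostaglandin F synthase activity, rose by 1.36 ± 0.37 (edgeR adjusted p = 0.0307), a call lost in 6 of 10 fits without 1 library. Its 3 highest sums, at 1234, 1261 and 1716 CPM, were E13 of P18 and P19 and E14. PTGS2, the inducible cyclooxygenase at the head of the pathway, did not pass (0.01 ± 0.59). It was lowest at E13 of P18 and P19 (66.1 and 69.6 CPM) and at E10 (81.9 and 123 CPM), and at 541 to 718 CPM at E12 and at E13 of P9 and P10.

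Cholesterol genes moved in opposite directions. In the list of cholesterol supply 7 of 21 tested genes rose and 3 fell, with a median log2 change of 0.67. Over all genes tested 4.79% rose and 3.5% fell. The 4 risers named here belong to cholesterol synthesis and its control. With the library as a block FDFT1 kept its call (2.67, edgeR adjusted p = 0.00597). SQLE (1.89, adjusted p = 0.12), SREBF2 (0.22, adjusted p = 0.914) and CYP51A1 (1.24, adjusted p = 0.497) lost theirs. SQLE, squalene epoxidase, rose from 16.8 ± 10.2 to 136 ± 101 CPM (3.01 ± 0.57, edgeR adjusted p = 0.00251). FDFT1, squalene synthase, rose from 54.4 ± 36.0 to 288 ± 176 CPM (2.36 ± 0.45, edgeR adjusted p = 0.00268), and SREBF2, the transcription factor that controls the pathway, rose from 10.8 ± 9.32 to 64.2 ± 35.2 CPM (2.60 ± 0.65, edgeR adjusted p = 0.0179). CYP51A1 rose by 2.17 ± 0.65 (edgeR adjusted p = 0.0482), a call lost in 7 of 10 fits without 1 library. SQLE was highest in P18, at 293 CPM, and its E12 sum, at 29.8 CPM, lay below the highest early sum at 33.5 CPM.

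The 3 genes that fell handle cholesterol taken up by the cell. NPC1 and NPC2 move cholesterol out of the lysosome, and SOAT1 esterifies it for storage. NPC2 stood at 817 to 1084 CPM in the early sums, at 257 CPM at E12, at 235, 228, 163 and 121 CPM at E13 and at 77.9 CPM at E14 (-2.38 ± 0.28, edgeR adjusted p = 2.87e-05). NPC1 was at 413 to 765 CPM at E7 and E8, at 132 and 149 CPM at E10 and at 21.4 to 46.5 CPM in the late sums (-3.58 ± 0.41, edgeR adjusted p = 2.87e-05). SOAT1 was at 534 to 728 CPM at E7 and E8, at 194 and 207 CPM at E10 and at 45.6 to 145 CPM late (-2.28 ± 0.36, edgeR adjusted p = 0.00061). Both NPC1 and SOAT1 were therefore already lower at E10 than at E7 and E8, whereas NPC2 was not. All 3 kept their calls without any single library. With the library as a block NPC1 and SOAT1 kept theirs and NPC2 did not (edgeR adjusted p = 0.18).

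Of 19 tested genes of apolipoproteins and lipid storage, 2 rose and 1 fell, where 4.79% of all genes tested rose and 3.5% fell. PLIN2, the coat protein of lipid droplets, fell from 806 ± 178 to 85.7 ± 55.2 CPM (-3.22 ± 0.41, edgeR adjusted p = 6.98e-05). Its late sums ran from 20.5 CPM at E14 to 180 CPM at E13 of P19, all below the lowest early sum at 608 CPM. Both E10 sums, at 629 and 608 CPM, lay below all E7 and E8 sums. FASN, fatty acid synthase, rose from 70.3 ± 42.0 to 244 ± 51.2 CPM (1.78 ± 0.34, edgeR adjusted p = 0.00285), and the other riser in the list was PPARG. Genes named for size included further lipid enzymes. ACSL6, which activates long-chain fatty acids, went from 517 ± 187 to 18.5 ± 22.7 CPM (-4.88 ± 0.80, edgeR adjusted p = 0.000752), NAAA, which hydrolyses fatty acid ethanolamides, from 445 ± 126 to 8.30 ± 7.48 CPM (-5.70 ± 0.56, edgeR adjusted p = 9.3e-06), and FADS3, of the fatty acid desaturase family, from 199 ± 92.2 to 4.81 ± 4.00 CPM.

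**Figure D4:**
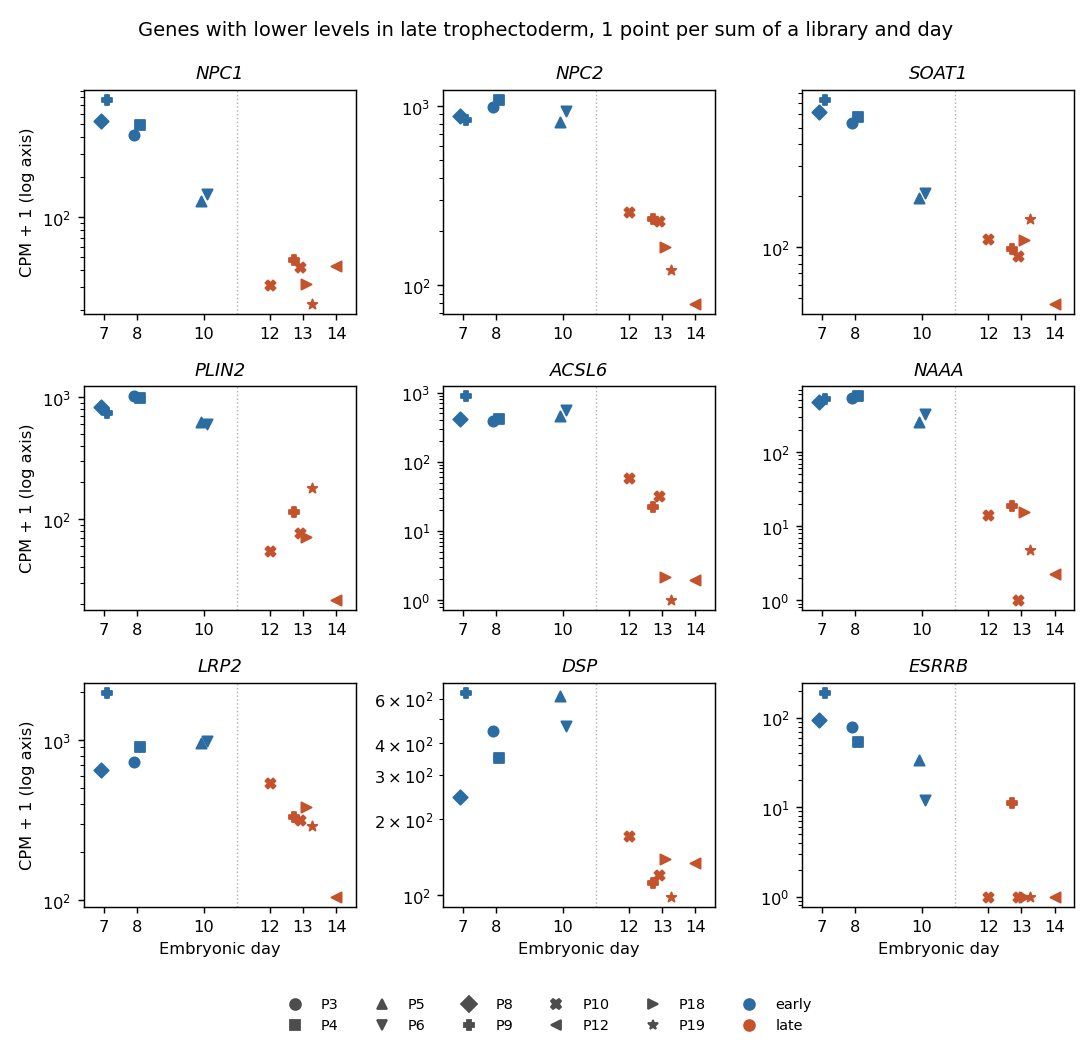
Levels of 9 genes that fell, by embryonic day, as CPM + 1 on a log axis, 1 point per sum of a library and day. NPC1 and SOAT1 are already lower at E10 than at E7 and E8, PLIN2 is slightly lower there, and NPC2 and ACSL6 lie within or near their E7 and E8 range at E10 and are low from E12.

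The genes of apical endocytosis that passed, a receptor and lysosomal proteins, were lower late. With the library as a block none of them kept its call (edgeR adjusted p = 0.0961 for LRP2, 0.218 for LGMN and 0.399 for LAMP2). Of 13 tested genes of apical endocytosis, none rose, 3 fell and 10 did not pass, with a median log2 change of -0.39; the summed level of the list was 4417 to 6068 CPM in the early sums and 2864 to 3433 CPM in the late ones. At an unadjusted p under 0.05, 1 was higher and 5 lower, and DESeq2 called 0 higher and 4 lower. LRP2, the megalin receptor that takes up many proteins at the apical membrane, fell from 1033 ± 477 to 328 ± 141 CPM (-1.68 ± 0.34, edgeR adjusted p = 0.00398), and LGMN, the lysosomal protease legumain, fell by 1.47 ± 0.28 (edgeR adjusted p = 0.00276). LAMP2, a protein of the lysosomal membrane, passed at -0.78 ± 0.23, a call lost in 8 of 10 fits without 1 library. In the list of 20 tested amino acid and nutrient transporters 1 rose and 2 fell, where 4.79% of all genes tested rose and 3.5% fell. SLC38A2, a carrier of small neutral amino acids, rose by 2.81 ± 0.63 (edgeR adjusted p = 0.00879). SLC7A8 and its partner SLC3A2, which together exchange large neutral amino acids, fell by 2.05 ± 0.33 (edgeR adjusted p = 0.000739) and 1.35 ± 0.34 (adjusted p = 0.0199). Other carriers were named for size. SLC30A2, a zinc transporter, fell from 198 ± 158 to 3.76 ± 4.32 CPM, and SLC28A3, a nucleoside carrier, from 736 ± 405 to 36.8 ± 44.2 CPM, with its late values at 0 to 1.53 CPM in P18, P19 and P12 and at 37.2 to 99.8 CPM in P9 and P10.

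Some genes of adhesion and the cell skeleton passed the test. Among 13 tested keratins and desmosomal genes, none rose and 3 fell, with a median of -0.72; at an unadjusted p under 0.05, 0 were higher and 5 lower, and DESeq2 called 0 and 3. DSP, desmoplakin, which ties desmosomes to keratin filaments, stood at 243 and 633 CPM at E7, at 447 and 350 CPM at E8, at 616 and 466 CPM at E10, and at 97.9 to 171 CPM in the late sums (-1.86 ± 0.25, edgeR adjusted p = 0.000103). The desmosomal cadherins DSC2 and DSG2 fell by 1.47 ± 0.30 (adjusted p = 0.00467) and 1.31 ± 0.32 (adjusted p = 0.0149), with overlapping sums. Of 25 tested genes of tight and adherens junctions, 2 rose and 1 fell, where 4.79% of all genes tested rose and 3.5% fell. OCLN, occludin of the tight junction, fell from 158 ± 23.9 to 59.8 ± 22.6 CPM (-1.44 ± 0.29, edgeR adjusted p = 0.00359). CLDN3, a claudin of the same junction, had 1 early count and stood at 14.5 to 149 CPM late, a pooled ratio of 755 (95% counting interval 135 to 29851; edgeR adjusted p = 9.88e-06). GJA1, the gap junction protein connexin 43, rose from 6.74 ± 5.95 to 261 ± 128 CPM (5.50 ± 0.63, edgeR adjusted p = 2.77e-05) and was lowest among late sums at E14, at 73.5 CPM.

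Integrins and their ligands also split: 4 of 21 tested genes rose and 2 fell. The laminin chain LAMA3 rose from 1.35 ± 2.09 to 117 ± 92.9 CPM (6.82 ± 0.93, edgeR adjusted p = 0.000141), and ITGA6, an integrin chain that binds laminin, from 33.6 ± 18.8 to 177 ± 129 CPM (2.40 ± 0.46, edgeR adjusted p = 0.00288). LAMA5 and LAMB1, further laminin chains, rose by 2.11 ± 0.49 (adjusted p = 0.0107) and 1.46 ± 0.37 (adjusted p = 0.0181), but with the library as a block LAMA5 was at -0.11 (adjusted p = 0.934). ITGA5, the integrin chain that binds fibronectin, fell from 152 ± 55.6 to 34.4 ± 23.4 CPM (-2.17 ± 0.41, edgeR adjusted p = 0.00241), and CD9, a tetraspanin partner of integrins, from 854 ± 261 to 221 ± 102 CPM (-1.99 ± 0.28, edgeR adjusted p = 0.000198). Of 35 tested actin and myosin genes 5 rose and 1 fell, with a median of 0.06, where 4.79% of all genes tested rose and 3.5% fell. TLN1, talin, which links integrins to actin, stood at 11.8 to 66.9 CPM early and at 142 to 375 CPM late (2.95 ± 0.40, edgeR adjusted p = 0.000133), TPM4, a tropomyosin, rose from 213 ± 84.4 to 925 ± 253 CPM (2.13 ± 0.32, edgeR adjusted p = 0.000302), and EZR, ezrin of microvilli, fell from 1055 ± 153 to 490 ± 137 CPM (-1.12 ± 0.24, edgeR adjusted p = 0.00637).

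Several epiblast markers were higher in late trophectoderm, although the defining ones were not. Of 8 tested epiblast markers 4 rose and none fell (0 lower also at an unadjusted p under 0.05 and by DESeq2), with a median of 1.5, and the summed level of the list was 146 to 486 CPM in the early sums and 1112 to 2081 CPM in the late ones, of which DPPA5 alone made 622 to 1408 CPM. In the epiblast and ectoderm sums of these libraries DPPA5 was at 21.7 to 112 CPM. DPPA5, a small RNA-binding protein known from pluripotent cells, stood at 34.7 and 97.1 CPM at E7, at 52.0 and 45.6 CPM at E8, at 46.1 and 60.9 CPM at E10, at 622 CPM at E12, at 1080, 1408, 1004 and 1008 CPM at E13 and at 827 CPM at E14. The change of 4.18 ± 0.31 (edgeR adjusted p = 1.15e-06) kept its call under every setting run. POU5F1, the central factor of pluripotency, did not pass (0.57 ± 0.74): it fell across early sums from 100 and 170 CPM at E7 to 20.2 and 10.3 CPM at E10, was at 60.4 to 175 CPM at E12 and E13 and at 1.604 CPM at E14. SOX2 and NANOG were at most at 13.7 and 8.09 CPM in any sum and were not tested. LIN28B rose by 4.41 ± 0.75 (edgeR adjusted p = 0.00102), and SALL2 by 3.05 ± 0.73 (adjusted p = 0.0141), lost without P18 (adjusted p = 0.0507).

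DNA methylation genes and imprinted genes changed as follows. Of 9 tested DNA methylation genes 4 rose and none fell, also at an unadjusted p under 0.05 and by DESeq2 (0 lower by both). Over all genes tested 4.79% rose and 3.5% fell. The median log2 change of the list was 0.04, so the list as a whole was not shifted. DNMT3B, a de novo methyltransferase and also on the list of epiblast markers, rose from 67.9 ± 34.5 to 331 ± 119 CPM (2.30 ± 0.37, edgeR adjusted p = 0.0006), and UHRF1, which guides maintenance methylation, from 1.12 ± 2.03 to 22.7 ± 11.6 CPM (4.16 ± 0.86, edgeR adjusted p = 0.00505). TET3, which oxidises methylcytosine, rose by 3.85 ± 0.88 (adjusted p = 0.00982), and the maintenance enzyme DNMT1 by 1.58 ± 0.42 (adjusted p = 0.0243), lost in 4 of 10 fits without 1 library. With the library as a block none of the 4 kept its call (edgeR adjusted p = 0.112 for DNMT3B, 0.134 for UHRF1, 0.183 for TET3 and 0.153 for DNMT1). Of 10 tested imprinted genes 2 rose and 3 fell. GNAS, a stimulatory G protein subunit, went from 80.8 ± 15.6 to 425 ± 142 CPM (2.37 ± 0.25, edgeR adjusted p = 1.8e-05), PEG10, a placental gene of retrotransposon origin, from 2.05 ± 2.79 to 31.1 ± 21.2 CPM (3.93 ± 0.87, edgeR adjusted p = 0.0081), and IGF2R, a receptor that clears IGF2, from 265 ± 244 to 28.1 ± 22.4 CPM (-3.27 ± 0.57, edgeR adjusted p = 0.00117).

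The calls among growth, cycle and energy genes were near the share of 8.29% over all genes and are given by name. Of 26 tested growth factors and receptors 3 rose and none fell (1 lower at an unadjusted p under 0.05 and 1 by DESeq2): FGFR2 by 3.98 ± 0.69 (edgeR adjusted p = 0.00118), the WNT receptor FZD5 by 3.05 ± 0.75 (adjusted p = 0.0159) and WNT6 by 2.17 ± 0.64 (adjusted p = 0.0426), the last lost in 8 of 10 fits without 1 library. FZD5 was at 249 and 269 CPM at E13 of P18 and P19 and at 5.12 and 14.7 CPM at E13 of P9 and P10, not above its early range of 5.71 to 18.2 CPM. With the library as a block FZD5 was at -1.89 (edgeR adjusted p = 0.176). Of 24 tested cell cycle genes 2 rose, the cyclins CCND1, from 3.44 ± 3.74 to 115 ± 69.5 CPM (5.28 ± 0.65, edgeR adjusted p = 5.74e-05), and CCND2 (2.31 ± 0.62, adjusted p = 0.0262, lost in 3 of 10 fits, and at -0.73 with the library as a block, adjusted p = 0.752). Glycolysis had 2 risers among 17 tested genes, PKM (0.93 ± 0.21, adjusted p = 0.00902) and HK1 (0.84 ± 0.24, adjusted p = 0.0346, lost in 6 of 10 fits), and oxidative phosphorylation with its feeder enzymes had 1 faller among 20, IDH3A (-1.01 ± 0.26, adjusted p = 0.0228, lost in 4 of 10 fits). Of 18 tested p53 and stress genes 2 rose: the heat shock protein HSPB1, from 80.0 ± 77.4 to 716 ± 202 CPM (3.14 ± 0.56, edgeR adjusted p = 0.00163), and the peroxide-removing GPX1 (1.48 ± 0.27, adjusted p = 0.00188).

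Further genes named for size have varied roles. CTBS, a lysosomal enzyme that cleaves chitobiose from glycoproteins, stood at 0 to 28.3 CPM early, at 647 CPM at E12, at 788.5, 1061, 1263 and 1642 CPM at E13 and at 2046 CPM at E14 (8.51 ± 0.83, edgeR adjusted p = 9.3e-06). PLET1, a surface protein known from placental progenitors, was at 39.6 and 52.6 CPM at E7, at 4.28 and 1.47 CPM at E8 and at 0 in both E10 sums, and then at 512 to 3606 CPM late (6.89 ± 0.98, edgeR adjusted p = 0.000201). SELENOP, a secreted selenium carrier, rose from 3.82 ± 4.25 to 388 ± 302 CPM (6.48 ± 0.82, edgeR adjusted p = 6.93e-05). The remaining risers were CORO2A, an actin-binding coronin with no early count (at least 250-fold above the floor), ATP10B, a lipid flippase (pooled ratio 588, 95% counting interval 201 to 2855), LYPD6, a modulator of WNT signals (571, 158 to 4716), and the kinase STK26 (6.49 ± 0.88). The remaining fallers were FYB1, an adaptor known from T cells (-6.73 ± 0.72), the ATP receptor P2RX1 (-6.09 ± 0.95), the aminopeptidase XPNPEP2 (-5.36 ± 1.02), TRIM15 (-4.62 ± 1.00), the galactosyltransferase B4GALT5 (-4.54 ± 0.55) and the inositol oxygenase MIOX (-4.46 ± 0.77), with edgeR adjusted p-values from 1.82e-05 to 0.00694.

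Markers of other cell types were checked over their lists, where 4.79% of all genes tested rose and 3.5% fell. Of 9 tested hypoblast markers none rose (0 also at an unadjusted p under 0.05 and by DESeq2) and 1 fell, GATA6 (-2.42 ± 0.55, edgeR adjusted p = 0.0101, lost without P10, adjusted p = 0.0541), and the list summed to 846 to 2062 CPM early and 592 to 1656 CPM late. Of 5 tested mesoderm and fibroblast markers 2 rose, HAND1 and POSTN (2.92 ± 0.84, lost in 8 of 10 fits without 1 library), with 4 higher and 1 lower where p was under 0.05 before adjustment and 4 higher and 0 lower by DESeq2, and a median log2 change of 2.73. The list, HAND1 included, summed to 12.2 to 115 CPM early and 436 to 1322 CPM late. TBXT, a mesoderm factor, was at most at 0.764 CPM. Fibroblast genes were high at E14 of P12, where all 10 cells had counts of COL1A2, COL3A1, LUM and DCN. Their counts there were 447, 379, 357 and 143, against 8, 14, 19 and 5 over the E13 sums. Of 4 tested amnion markers 2 rose, IGFBP5 (4.03 ± 0.87) and WNT6, and the list summed to 12.8 to 184 CPM early and 67.6 to 967 CPM late, where IGFBP5 alone reached 589 CPM at E14. The single tested marker of uterine epithelium, WFDC2, rose by 3.92 ± 0.96 (edgeR adjusted p = 0.0154), lost without P12 (adjusted p = 0.065), while PIGR and SCGB1A1 were at most at 1.47 and 1.84 CPM. None of 3 tested blood, immune and vessel markers passed in edgeR, 0 at an unadjusted p under 0.05 and 0 by DESeq2.

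Levels at E10 were set against those of other days, and the E13 sums against each other. The E10 sums come from P5 and P6, which held no tested E7 or E8 sum, so day and library cannot be told apart. Of the 435 genes higher late, 113 (26.0%, against 11.3% of all genes tested) had both E10 sums above all E7 and E8 sums, and of the 318 lower genes 78 (24.5%, against 6.03%) had both below. All late sums lay above both E10 sums for 304 of the higher genes (69.9%, against 7.42% of all genes tested), and below both for 238 of the lower ones (74.8%, against 8.23%). All these sums, E7, E8 and E10 included, entered the call, so the shares in this paragraph are partly set by it. The 4 E13 sums were split by library. P18 and P19 both lay above P9 and P10 for 203 of the higher genes (46.7%, against 24.1% of all genes tested), and both lay below for 123 of the lower ones (38.7%, against 22.1%). P9 and P10 also hold E7 and E12 cells and P18 and P19 do not, and whether the E13 libraries differ in embryo, stage or handling is not recorded in the labels.

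In P9, the library with both periods, E7 and E13 can be set side by side. With P9 left out of the fit, 1068 genes passed, 625 higher and 443 lower. Of the 625, 460 (73.6%) were higher at E13 than at E7 within P9, against 56.9% of the 9180 genes tested. Of the 443, 263 (59.4%) were lower at E13, against 42.7% of genes tested. The E7 sum of P9 is the sum of 5 cells that stood apart, and the values have no test. In a fit with the library as a block, P9 alone ties the periods. Of 99 named genes called, 45 kept their call in that fit and 54 lost it, of which 5 turned sign. HAND1, PPARG, PAG6, DPPA5, NPC1, SOAT1, PLIN2, DSP and CCND1 kept it. Among those that lost it were PTHLH (8.63, edgeR adjusted p = 0.0511), GNAS (1.86, adjusted p = 0.0502), NPC2 (-1.91, adjusted p = 0.18) and PTGES (-0.80, adjusted p = 0.638). The others are STK26, GATA3, ASCL2, WWTR1, CYB5A, SQLE, SREBF2, CYP51A1, AKR1B1, IFNG, IL6ST, IFI6, MMP2, TIMP3, CTSD, CSTB, ITGA6, LAMA5, LAMB1, ITGA5, CD9, DSC2, DSG2, OCLN, TPM2, CNN2, EZR, PKM, HK1, IDH3A, SLC7A8, SLC3A2, LRP2, LGMN, LAMP2, FASN, FGFR2, FZD5, WNT6, PEG10, UHRF1, TET3, DNMT3B, DNMT1, CCND2, GPX1, LIN28B, SALL2, POSTN and WFDC2.

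The change in trophectoderm was then set against that of the embryonic lineage, from epiblast (3 sums, E7 and E8) to ectoderm (4 sums, E12 to E14). This used the 7 library-days with at least 5 cells of both lineages, with the library-day kept as a block. Its trophectoderm sums were E7 of P8 and P9, E8 of P4, E12 of P10, E13 of P18 and P19 and E14 of P12. No E10 sum entered, and neither did E8 of P3 or E13 of P9 and P10. The trophectoderm change here is therefore not that of the 12 sums above. The term tested is the change in trophectoderm minus the change in the embryonic lineage. It passed for 412 of 13339 genes (3.09%), of which 272 (2.04%) had the more positive change in trophectoderm and 140 (1.05%) the more negative. The median over all genes was -0.06, and 0.07 with DESeq2 size factors, so differences of this size are set by scaling. Without P18 the count was 201, without P8 or P19 it was 232, and with hypoblast and endoderm groups as the reference it was 125. The fit with that reference used its own library-days, 6 early and 3 late, so its trophectoderm sums differ as well. Its results cannot be assigned to the reference lineage alone. The next paragraphs name genes whose call held without any single library. Over 9 other settings, the calls of DPPA5, DNMT3B and NPC2 held in all. Those of CTBS, PLET1, SELENOP, FDFT1, NPC1 and SOAT1 held in 8, and those of IFNG and PLIN2 in 7.

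DPPA5 was at 38.0 to 112 CPM in epiblast and at 21.7 to 53.4 CPM in ectoderm, whereas it rose in trophectoderm, with a difference between the changes of 4.83 ± 0.55 (edgeR adjusted p = 3.28e-05). DNMT3B was at 488 to 610 CPM in epiblast and at 52.97 to 669 CPM in ectoderm, and the difference between changes was 3.99 ± 0.60 (edgeR adjusted p = 0.000587). IFNG stood at 0 to 40.6 CPM in epiblast and at 20.9 to 136 CPM in ectoderm, highest in P12 (5.04 ± 0.83, edgeR adjusted p = 0.00124). Its call was lost with hypoblast and endoderm as the reference, on the library-days of that fit (2.30, adjusted p = 0.55). CTBS (6.15 ± 0.92, adjusted p = 0.000587), PLET1 (4.40 ± 0.80, adjusted p = 0.0026) and SELENOP (6.03 ± 1.04, adjusted p = 0.00152) also had the more positive change in trophectoderm, and all were higher in the ectoderm of P12 than in any other embryonic sum: 338, 592 and 110 CPM. FDFT1 was at 206 to 289 CPM in epiblast and at 240 to 398 CPM in ectoderm, and late trophectoderm of the same library-days at 195 to 598.5 CPM (2.99 ± 0.52, edgeR adjusted p = 0.00169).

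On the falling side, NPC1 was at 27.8 to 61.8 CPM in epiblast and at 16.9 to 31.8 CPM in ectoderm, and late trophectoderm came down to that range (-3.56 ± 0.54, edgeR adjusted p = 0.000647). NPC2 stood at 76.9 to 377 CPM in epiblast and at 109 to 316 CPM in ectoderm (-3.22 ± 0.51, edgeR adjusted p = 0.000884). SOAT1 (-2.90 ± 0.48, adjusted p = 0.00124) and PLIN2 (-3.37 ± 0.59, adjusted p = 0.00185) had the same direction. With the hypoblast reference and its other library-days both calls were lost, at -0.52 (adjusted p = 0.81) and -0.27 (adjusted p = 0.90). Other genes had no called difference between lineages. PTGES fell from 274 to 425 CPM in epiblast to 17.8 to 42.1 CPM in ectoderm, and the difference between the lineages was 0.10 ± 0.55 (edgeR adjusted p = 0.972). CCND1 rose from 0.33 to 9.76 CPM to 62.5 to 104 CPM in the embryonic lineage (0.32 ± 0.94, edgeR adjusted p = 0.926). A difference that misses the threshold does not show equal change.

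**Figure D5:**
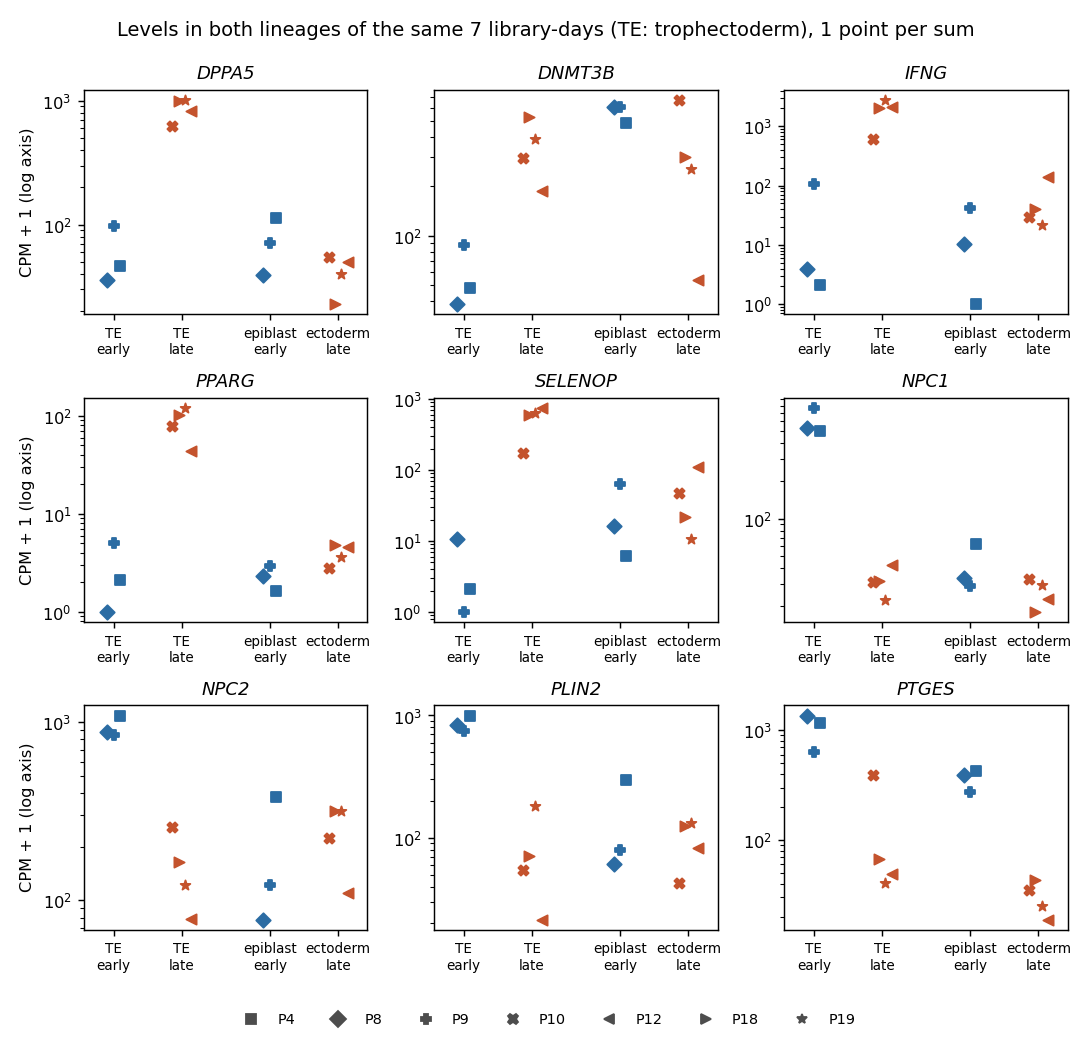
Levels of 9 genes in trophectoderm (TE) and in the embryonic lineage (epiblast early, ectoderm late) of the same 7 library-days, as CPM + 1 on a log axis, 1 point per sum. DPPA5, IFNG, PPARG and SELENOP are highest in late trophectoderm, NPC1, NPC2 and PLIN2 are high in early trophectoderm, and PTGES is lower late in both lineages.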

How the data were processed

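The series profiled single cells with barcodes by a Smart-seq2 method, per the labels' protocols. The authors deposited raw counts (29306 features, of which 29214 are pig genes and 92 spike-in sequences, for 1647 cells) and, for every group, means and standard deviations over cells, whose values are on a log2 scale, log2(CPM/10 + 1). STAR 2.7.1a, the build Sscrofa11.1, featureCounts 1.6.4 and UMI-tools are named, per the submitters' processing notes.

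All cells took weight in exactly 1 of 39 groups. Recomputed group means lay within 0.001 of the deposited ones for 93.11% of genes or more, and standard deviations for 99.82% or more (99.86% or more in the trophectoderm groups). Of the identifiers, 14800 were named from a table of gene names and 1125 by values matching the authors' named ones. IL1B and KRT19 stayed unmatched and have no value here.

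Sums of at least 5 cells per library and day were tested, without spike-ins. E8 of P5 (3 cells), E14 of P11 (1 cell) and TE_E9 (2 cells) were left out. The test was the quasi-likelihood F-test of edgeR 4.0.16 (R 4.3.3) after filterByExpr and TMM scaling, adjusted by Benjamini-Hochberg over all genes tested. It was also run on simulated counts, drawn for independent sums at a fixed dispersion. That run cannot show how shared libraries, days or outlying sums affect the test. The test between lineages kept the library-day as a block, since its sums come in pairs from 1 library and day. Fold bounds use a floor of 3 pooled counts. Intervals are exact binomial ones at 95% and cover counting error only. Alternatives were DESeq2 1.42.0 and other filters, cell minimums, days, libraries and references; leaving out the E7 sum of P9, cells under 6000 genes or the cell of 15798 genes was added after seeing the data.

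The naming rule took, in each direction, the 12 called genes with the largest change whose sums did not overlap and whose higher period had 50 CPM or more, then up to 4 called genes per list and direction, and 12 genes in any case. Members, lists and rule were chosen with earlier results of these data known. Genes named beyond these, among them IFN-DELTA-1, CYP19A1, HSD17B1 and STAR, were chosen after their values were seen.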

Additional observations from a re-analysis of the deposited data

Results flagged for a closer look

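A single sum lay far from the other 5 of its period, measured on log2(CPM + 1), for 21 of the genes named. Both periods of every named gene were checked, and with normally spread values chance alone does this for about 1 in 20 groups. That rate does not hold where the other 5 sums had no count, as for PAG6, ATP10B, CLDN3, P2RX1 and ESRRB. The E7 sum of P9, which stood apart in depth, was the one for AKR1B1 (109 CPM against 371 to 460), IL6ST (138 against 39.3 to 50.1), SLC7A8 (1275 against 514 to 682), IGF2R (757 against 116 to 216) and GATA2 (935 against 225 to 370). The E7 sum of P8 was highest for PAG6 (0.408 CPM against 0) and lowest for FZD5 (5.71 against 14.7 to 18.2). At E10, P5 was highest for ATP10B (1.73 against 0) and UHRF1 (5.19 against 0 to 0.791), and P6 for CLDN3 (0.791 against 0).

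In the late period, E13 of P9 was highest for FYB1 (2.13 CPM against 0 to 0.392), P2RX1 (8.10 against 0) and ESRRB (10.2 against 0), and lowest for CCND2 (5.12 against 51.4 to 170). E12 of P10 was lowest for PKM (389 against 516 to 610) and CDX2 (3.14 against 15.5 to 30.9). E13 of P18 was highest for PAG1 (10.1 against 0 to 1.28) and lowest for CSTB (229 against 387 to 487), and E13 of P10 was lowest for B4GALT5 (0 against 9.94 to 23.5). E14 was lowest for CYP11A1 (15.7 against 145.5 to 420) and POU5F1 (1.604 against 60.4 to 175). PAG1 is a symbol shared by a pregnancy-associated glycoprotein and an unrelated membrane adaptor. The gene measured here lies on chromosome 4 and PAG6 on chromosome 2, so its fall is not read as that of a glycoprotein. PAG1 fell by 3.26 ± 0.91 (edgeR adjusted p = 0.0327), a call lost in 5 of 10 fits without 1 library.

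The change differed between trophectoderm and the embryonic lineage, by the tested difference of log2 changes, for 14 of the genes named for size or in any case. It was more positive in trophectoderm for PTHLH (12.89), ATP10B (10.52), CLDN3 (10.07), CTBS (6.15), SELENOP (6.03), PPARG (5.06), IFNG (5.04) and PLET1 (4.40), and more negative for P2RX1 (-9.47), SLC30A2 (-5.18), NAAA (-3.87), FADS3 (-3.66), B4GALT5 (-3.06) and KRT8 (-1.78). Leaving out 1 library ended the call in 1 of 7 fits for PTHLH, 2 for ATP10B, 3 for CLDN3 (2.77 without P4, adjusted p = 1), PPARG and B4GALT5, 4 for FADS3 and 5 for KRT8; the calls of CTBS, SELENOP, IFNG, PLET1, P2RX1, SLC30A2 and NAAA held in all 7. Where a gene has no counts in some sums, as PTHLH, ATP10B, CLDN3 and P2RX1 have, the fitted size depends on the prior count. KRT8 did not pass in trophectoderm itself; in the embryonic lineage it was at 646 ± 312 CPM early (n = 3) and at 1090 ± 109 CPM late (n = 4).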

How the results depend on the processing

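For the late against early comparison, 753 genes passed, 435 higher and 318 lower. DESeq2 called 1173 (653 higher, 520 lower), edgeR without the filter on low counts 1315 (828, 487), a single fit of all embryonic sums 1994 (1414, 580), the fit without E8 454 (273, 181), without E13 262 (190, 72), and without E10 664 genes were higher. Leaving out each library gave 559 to 1068 genes (326 to 625 higher, 233 to 443 lower). The fit with the library as a replicate block, in which P9 alone pairs the periods, called 1019 (586, 433). For the difference between lineages, 412 passed (272 more positive, 140 more negative). DESeq2 called 934 (615, 319), the hypoblast and endoderm reference, on its own library-days, 125 (66, 59) and the fit with no replicate block 211 (150, 61). Without the filter 435 were more positive. Leaving out each library gave 201 to 575 (136 to 371 and 65 to 242). At least 10 cells per sum left no early library-day for this test, so it was not run.

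Some log2 changes of named genes changed sign. With the replicate block CYB5A was at 0.32, TIMP3 at -1.01, LAMA5 at -0.11, FZD5 at -1.89, CCND2 at -0.73, CYP17A1 at 9.06 and CYP11A1 at 3.47 (both called, unlike in the comparison as tested), PTGS2 at -0.48 and POU5F1 at -1.46. GATA2 was at 0.38 with at least 10 cells per sum, 0.30 without E7, 0.0187 without E13, 0.0021 with a factor of day, 0.0825 in the fit of all embryonic sums, 0.24 without the E7 sum of P9 and 0.25 with cells of at least 6000 genes; leaving out a library gave -0.34 to 0.26. TFAP2C was at 0.11 without E7. CYP17A1 was at 12.1 with at least 10 cells, 9.25 without E10, 1.22 without E13, 5.89 with a factor of day, 6.67 in the fit of all embryonic sums and 0.0331 with TE_E9 added, and -1.09 to 1.19 without a library. CYP11A1 was at 0.0247 without E8, 0.36 without E10 and 0.0889 without E14, and -0.42 to 0.0889 without a library. PTGS2 was at -0.0435 with DESeq2, -0.0361 with its size factors, -0.12 with at least 1 cell, -1.67 with at least 10, -0.42 without E10, -0.27 without E12, -0.19 with 1 sum per library and period and -0.0598 with TE_E9 added, and -0.61 to 0.24 without a library. POU5F1 was at -0.41 without E13, -0.74 with a factor of day and -0.69 in the fit of all embryonic sums. In the difference between lineages, LIN28B was at -0.41 and FZD5 at -0.19 with the hypoblast reference. None of GATA2, TFAP2C, CYP17A1, CYP11A1, PTGS2 and POU5F1 was called in the comparison as tested, and the causes were not tested.

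Of 99 named genes that passed, 75 kept their call in each of the 10 fits without 1 library and 43 also in each of the 6 fits without a day. Precision rests on 6 sums per period with as few as 494250 counts.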

Other observations

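The cells that entered no test give further values, as counts of 1 to 3 cells with counting error only. The single E14 cell of P11 comes from another library than the 10 E14 cells of P12. It had 216 counts of CTBS (790 CPM), 530 of PLET1 (1939 CPM), 196 of HAND1 (717 CPM), 122 of DPPA5 (446 CPM), 44 of PAG6 (161 CPM) and 11 of IFN-DELTA-1 (40.3 CPM). Its IFNG level, 198 CPM from 54 counts, lay between the highest early sum (167 CPM) and the lowest late one (618 CPM). For steroid enzymes the cell had no count of CYP11A1, which was at 15.7 CPM in P12, and 25 counts of CYP17A1 (91.5 CPM), but it also had no count of CYP19A1, which stood at 484 CPM in the E14 sum of P12. Among uptake and storage genes, NPC1 was at 150 CPM, NPC2 at 172 CPM, PLIN2 at 22.0 CPM and PTGES at 3.66 CPM, with 1 count. The collagens COL1A1 (117 CPM) and COL3A1 (252.5 CPM) and the fibroblast proteoglycan LUM (117 CPM) were present in this cell too.

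The 2 cells of TE_E9 from P17, between the days of the early period, had no counts of CYP17A1, CYP19A1, HAND1 or PPARG, 22 counts of CYP11A1 (120 CPM) and 9 of IFNG (49.0 CPM). Their levels of NPC1 (163 CPM), SOAT1 (152.5 CPM) and PLIN2 (283 CPM) lay below those of the E7 and E8 sums, while ACSL6 (735 CPM) lay within the early range and ESRRB (223 CPM) above it. The 3 E8 cells of P5 had 6 counts of CYP17A1 (11.4 CPM), where the tested E8 sums had none, and 190 of CYP11A1 (362 CPM). NPC1 was at 532 CPM there, NPC2 at 1018 CPM and PTGES at 1094 CPM.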
